A study of Mus musculus with 12 samples.

Results

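The receptors described here are 10 genes whose products recognise microbial molecules: the Toll-like receptors Tlr1, Tlr2, Tlr3, Tlr4, Tlr5 and Tlr9, the cytosolic receptors Nod1 and Nod2, and the inflammasome receptors Nlrp6 and Naip1. They were taken by their symbols from a gene table of 53715 mouse genes, and each symbol matched 1 row. All 10 were among the 16558 genes left by the filter on low counts. The table covered 12 poly(A) RNA-seq libraries of intestinal mucosa from C57BL/6J mice, 3 each of ileum and colon from control mice (Slc39a8-fl/fl) and from Slc39a8-IEC KO mice (Slc39a8-fl/fl:Villin-Cre). SLC39A8 carries manganese into cells, and Villin-Cre deletes its gene in intestinal epithelial cells only, so the other cells of the mucosa keep it. The mice were males at 8 weeks of age, as the legend for this experiment states, and by the methods controls were drawn from floxed, wild-type and Villin-Cre mice alike. The labels do not say whether an ileal and a colonic library with the same number came from the same mouse, and p-values measure the spread between these libraries. The totals ranged from 16749138 to 27903083 counts per library.

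Toll-like receptors span the cell surface or the endosomal membrane. At the surface, TLR2 pairs with TLR1 or TLR6 to bind bacterial lipopeptides, TLR4 binds lipopolysaccharide and TLR5 binds flagellin. In endosomes, TLR3 binds double-stranded RNA and TLR9 binds unmethylated CpG DNA. NOD1 and NOD2 sit in the cytosol and bind fragments of peptidoglycan, NAIP proteins bring flagellin or secretion-system proteins to the NLRC4 inflammasome, and NLRP6 is an inflammasome-related receptor of the intestinal epithelium. In the gut these receptors are shared between epithelial cells and the immune and stromal cells of the lamina propria.

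Before the receptors were compared, the labelled tissues were checked against marker genes. The ileal bile acid-binding gene Fabp6 lay between 3362 and 7110 CPM (counts scaled to a common library total with TMM factors) in the 6 ileal libraries and between 5.76 and 26.8 CPM in the 6 colonic libraries. The colonic carbonic anhydrase gene Car1 lay between 14880 and 27120 CPM in colon and between 3.40 and 144 CPM in 5 ileal libraries, but reached 2632 CPM in ileum KO replicate 2, which also held 67.3 CPM of the water channel gene Aqp8 against at most 0.358 CPM in the other ileal libraries. The summed level of 5 smooth muscle markers was 18.4 and 31.6 CPM in ileum KO replicate 1 and ileum control replicate 3 (called muscle-poor here), against 1646 to 2373 CPM in the other 4 ileal libraries and 2251 to 3475 CPM in colon. Slc39a8 itself lay between 5.22 and 8.39 CPM in control and between 2.62 and 4.35 CPM in KO ileum, and between 20.1 and 20.8 CPM in control and between 7.35 and 11.5 CPM in KO colon. Its groups therefore did not overlap in either tissue, and each library matched its genotype label. Results are given with and without the 3 ileal libraries that stood apart.

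The receptor genes lie on 9 chromosomes of the mm10 assembly. By the GENCODE M21 annotation, Tlr1 is at chr5:64924679-64933563, Tlr2 at chr3:83836272-83841767, Tlr3 at chr8:45395665-45411080, Tlr4 at chr4:66827584-66930284, Tlr5 at chr1:182954788-182976044 and Tlr9 at chr9:106222598-106226883. Nod1 is at chr6:54923949-54972612, Nod2 at chr8:88647315-88688474, Nlrp6 at chr7:140920902-140929192 and Naip1 at chr13:100407764-100452869. Their joint exon length, by which levels per kilobase were scaled, ranged from 3014 bases in Tlr2 to 5556 bases in Tlr4. Naip1 and Tlr1 have close copies in the genome: 20.5% of all 75-base windows of Naip1 transcripts and 10.6% of those of Tlr1 also occurred in a transcript of another gene, mostly Naip3, Naip5, Naip2 and Naip6 or Tlr6. The other 8 receptors shared no such window with another gene, and the only annotated genes that overlapped a receptor, Gm45542 in Tlr3 and Rpl31-ps13 in Naip1, held at most 4 and 6 counts in any library.

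The bases just upstream of the annotated gene are shown for 4 receptors that were higher in colon and for Tlr9, the receptor with a negative estimate. The negative estimate of Tlr9 was not called in control mice, and its call in KO mice was lost under 14 of 22 alternatives. The upstream regions of receptors whose estimates differ in sign can be read side by side. They come from RefSeq, on GRCm38.p6 (the same assembly as mm10), and were cut so that no base lies inside the gene as annotated by GENCODE M21. They cover chr5:64933564-64933808 (minus strand), chr3:83841768-83841858 (minus strand), chr1:182954538-182954787 (plus strand), chr8:88647097-88647314 (plus strand) and chr9:106222348-106222597 (plus strand). Each is written 5′ to 3′ in the direction of the gene, and capitals mark a match to the NF-kB motif (GGG, any 3 bases, then TTCC) or the PU.1 motif GAGGAAGT on either strand.
Tlr1: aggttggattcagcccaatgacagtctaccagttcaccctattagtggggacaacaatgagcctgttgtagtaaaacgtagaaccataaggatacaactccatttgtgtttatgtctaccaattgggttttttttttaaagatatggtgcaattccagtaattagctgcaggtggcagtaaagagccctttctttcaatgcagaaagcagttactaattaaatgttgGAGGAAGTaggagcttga
Tlr2: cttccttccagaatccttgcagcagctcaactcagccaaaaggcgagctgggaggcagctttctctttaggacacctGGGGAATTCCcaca
Tlr5: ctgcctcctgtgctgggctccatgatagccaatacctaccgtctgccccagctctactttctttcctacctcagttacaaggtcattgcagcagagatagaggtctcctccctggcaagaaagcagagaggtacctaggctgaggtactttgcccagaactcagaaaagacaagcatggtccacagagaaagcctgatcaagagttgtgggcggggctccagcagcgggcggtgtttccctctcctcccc
Nod2: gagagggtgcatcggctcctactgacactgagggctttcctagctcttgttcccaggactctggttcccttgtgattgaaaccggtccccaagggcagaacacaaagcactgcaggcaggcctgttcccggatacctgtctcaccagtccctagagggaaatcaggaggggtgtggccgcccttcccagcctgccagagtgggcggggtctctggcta
Tlr9: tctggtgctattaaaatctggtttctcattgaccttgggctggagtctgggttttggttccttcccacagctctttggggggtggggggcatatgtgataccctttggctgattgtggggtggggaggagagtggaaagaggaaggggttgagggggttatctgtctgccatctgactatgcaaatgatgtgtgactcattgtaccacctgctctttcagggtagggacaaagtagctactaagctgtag
RefSeq start regions were found for 9 of the 10 receptors, all but Tlr4. Motif positions are counted from the RefSeq start. In Tlr1, Tlr2 and Nod2 this start lies inside the GENCODE gene, so their printed stretches (245, 91 and 218 bases) end upstream of it. The NF-kB letters occurred in the 250 bases before the start in Tlr2, from 173 to 164 bases before it, and in Tlr3, from 211 to 202 bases before it, and in 4.65% of all 32851 mouse start regions of that length. The PU.1 letters occurred in Tlr1 alone of the 9, from 23 to 16 bases before the start, and in 2.44% of all start regions. A motif of the intestinal factor CDX, TTTATNG, occurred only in Naip1 among the 9 and in 9.81% of all regions, and the GATA motif AGATAAG in none of them and in 2.74% of all regions. The 2 NF-kB matches belonged to a receptor that was higher in colon and to Tlr3, which was not called. The motifs were chosen after these sequences had been seen, none of them overlaps another in these regions, and a match describes letters only.

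Across the 10 receptors the levels spanned more than 2 orders of magnitude, and the order was headed by the inflammasome receptors Naip1 and Nlrp6. Per kilobase of exon, Naip1 was the most abundant in every group, from 43.8 ± 20.9 CPM per kb (mean ± SD, n = 3) in control ileum to 62.3 ± 13.5 CPM per kb in control colon. Nlrp6 followed, from 28.3 ± 5.2 CPM per kb in control ileum to 42.6 ± 2.6 CPM per kb in KO colon. In control ileum the next were Tlr3 at 8.31 ± 1.12, Tlr1 at 4.60 ± 1.86, Tlr2 at 1.495 ± 0.640 and Nod1 at 1.14 ± 0.08 CPM per kb, and Tlr4, Tlr5, Tlr9 and Nod2 were all under 1 CPM per kb. In control colon the places after Nlrp6 were taken by Tlr1 at 25.7 ± 2.7 and Tlr2 at 18.9 ± 2.2 CPM per kb, and Tlr3 came after them at 9.84 ± 1.26 CPM per kb. Neighbours in these orders often overlapped: Naip1 and Nlrp6 did in control ileum, where the libraries of Naip1 lay between 23.7 and 65.4 and those of Nlrp6 between 22.3 and 31.6 CPM per kb. At the low end, Tlr9 rested on 3 to 20 counts per library, apart from 1 colonic library with 0, and Nod2 on 2 to 25 counts in ileum.

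**Figure D1:**
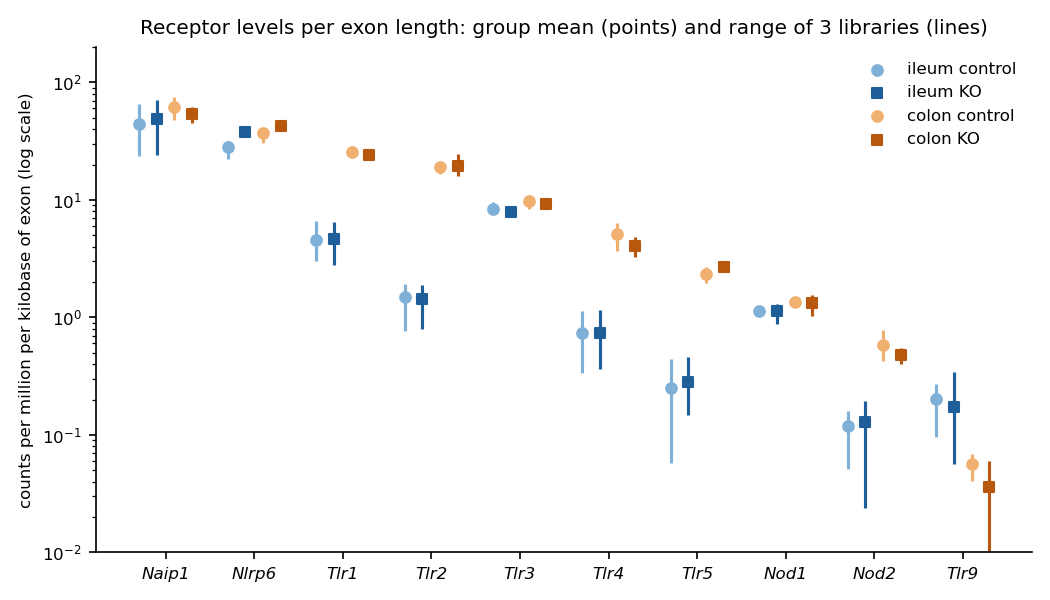
Mean CPM per kilobase of exon (log scale) of each receptor in the 4 groups as points, with the range of the 3 libraries as lines (the Tlr9 line that reaches the bottom includes a library at 0). Naip1 and Nlrp6 stood highest in all groups, and Tlr1, Tlr2, Tlr4, Tlr5 and Nod2 were each higher in both colonic groups than in both ileal groups.

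The comparison of colon with ileum asks where along the gut each receptor is transcribed, separately in control and in KO mice. In control mice 5 of the 10 receptors were higher in colon at an adjusted p under 0.1 (edgeR's quasi-likelihood test) and none was lower. The 5 were Tlr1, Tlr2, Tlr4, Tlr5 and Nod2, that is all 4 cell-surface Toll-like receptors of the group and the peptidoglycan receptor NOD2. Of all genes tested, 35.9% were called in this comparison, 16.2% as higher and 19.6% as lower in colon. In KO mice the same 5 were higher in colon and Tlr9 was lower, against 37.1% of all genes called, 17.1% as higher and 20.0% as lower. Higher in colon in both genotypes held for 5 of 10 receptors and for 12.8% of all genes. The median log2 fold change of the 10 receptors, colon over ileum, was 1.41 in control and 1.04 in KO mice, and that of all genes 0.02 and 0.01. In bulk mucosa, more cells of a type and more RNA per cell cannot be told apart.

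Tlr2, whose product is the shared partner of the lipopeptide-binding pairs, had the largest estimate between the tissues among the 10 with all libraries in the fit, whereas Tlr5 exceeded it without the muscle-poor libraries. In control ileum its 3 libraries held 5.39, 5.83 and 2.29 CPM and in KO ileum 2.38, 5.71 and 4.88 CPM. In control colon they held 57.5, 63.2 and 50.1 CPM and in KO colon 73.4, 48.2 and 52.5 CPM. Every colonic library therefore exceeded every ileal library, and the genotypes overlapped within each tissue. The log2 fold change, colon over ileum, was 3.67 (SE 0.38, adjusted p = 2.9e-05) in control and 3.73 (SE 0.38, adjusted p = 2.7e-05) in KO mice, about 12.75-fold and 13.27-fold. Tlr1, which pairs with TLR2, held 22.2, 13.8 and 10.1 CPM in control ileum and 9.36, 21.8 and 15.6 CPM in KO ileum. In control colon it held 93.95, 76.1 and 88.0 CPM and in KO colon 75.7, 81.9 and 82.8 CPM, again without overlap between the tissues. Its log2 fold change was 2.49 (SE 0.31, adjusted p = 0.00014) in control and 2.36 (SE 0.31, adjusted p = 0.00019) in KO mice. Tlr6, the other partner of TLR2 and the close copy of Tlr1, held between 1 and 14 counts in every library, and its log2 fold changes of 0.54 (SE 0.80) and 0.02 (SE 0.77) did not pass the test.

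Tlr4, the lipopolysaccharide receptor, held 6.32, 4.05 and 1.87 CPM in control ileum and 2.03, 6.45 and 3.84 CPM in KO ileum. In control colon it held 20.3, 30.1 and 35.4 CPM and in KO colon 22.5, 26.9 and 18.1 CPM. The lowest colonic library thus lay above the highest ileal library. The log2 fold change was 2.82 (SE 0.47, adjusted p = 0.00092) in control and 2.44 (SE 0.46, adjusted p = 0.0021) in KO mice. The genes of its accessory proteins Cd14 and Ly96 (MD-2), named here after their values were seen, were not called: mean Cd14 was 12.4 ± 1.5 CPM in control ileum and 11.3 ± 1.8 CPM in control colon, and mean Ly96 was 5.15 ± 2.14 and 4.01 ± 0.62 CPM (SD, n = 3).

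Tlr5, the flagellin receptor of the cell surface, held 1.20, 0.278 and 2.13 CPM in control ileum and 2.21, 1.17 and 0.711 CPM in KO ileum, on 5 to 50 counts per library. In control colon it held 12.9, 9.40 and 11.2 CPM and in KO colon 11.8, 13.4 and 13.2 CPM. Colon and ileum did not overlap in either genotype. Its log2 fold change was 3.18 (SE 0.55, adjusted p = 0.0012) in control and 3.25 (SE 0.54, adjusted p = 0.001) in KO mice.

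Nod2, which binds muramyl dipeptide, was the lowest of the 5. It held 0.799, 0.722 and 0.255 CPM in control ileum and 0.119, 0.977 and 0.853 CPM in KO ileum. In control colon it held 3.89, 2.69 and 2.12 CPM and in KO colon 2.03, 2.75 and 2.41 CPM. Its tissues did not overlap, with log2 fold changes of 2.31 (SE 0.60, adjusted p = 0.014) in control and 1.83 (SE 0.58, adjusted p = 0.036) in KO mice. Nod1, its relative that binds peptidoglycan of mainly Gram-negative bacteria, was not called, at 5.92, 6.11 and 5.35 CPM in control ileum and 6.30, 6.91 and 7.49 CPM in control colon. Its KO libraries held 4.47, 6.61 and 6.06 CPM in ileum and 7.26, 5.18 and 7.89 CPM in colon. The log2 fold changes of Nod1 were 0.25 (SE 0.22, adjusted p = 0.42) and 0.24 (SE 0.22, adjusted p = 0.43), with 95% intervals of -0.23 to 0.73 and -0.24 to 0.72. The control libraries of Nod1 did not overlap, and those of KO mice did.

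**Figure D2:**
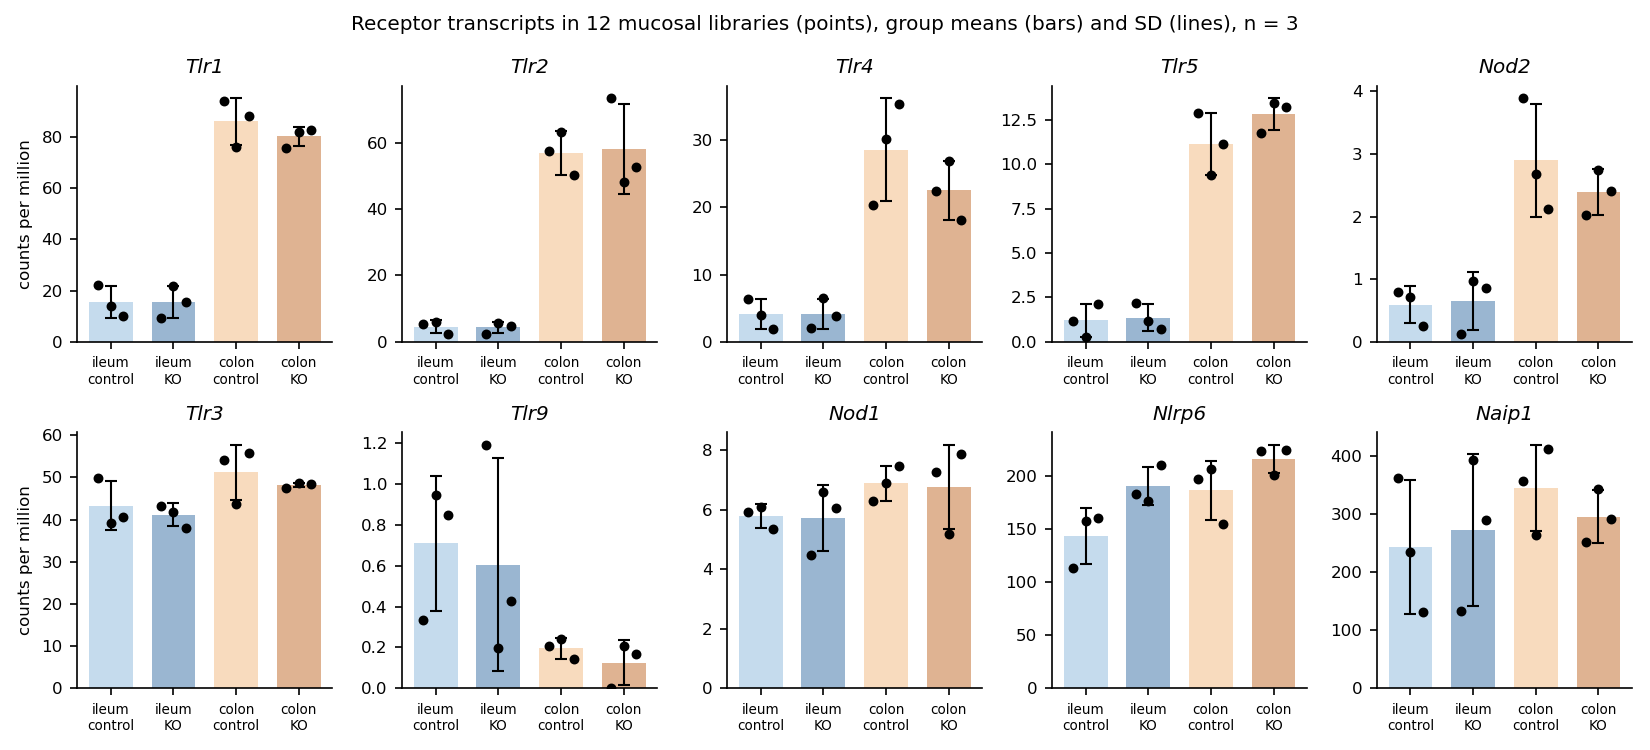
CPM of each receptor in the 12 libraries (points), with the mean (bars) and SD (lines) of the 3 libraries of each group, on linear axes from 0. In the upper row every colonic library lies above every ileal library, and in the lower row the 6 ileal and the 6 colonic libraries overlap.

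Tlr9, the CpG DNA receptor, had a negative estimate in both genotypes. It held 0.333, 0.944 and 0.8499 CPM in control ileum and 1.19, 0.195 and 0.426 CPM in KO ileum. In control colon it held 0.205, 0.240 and 0.141 CPM and in KO colon 0, 0.207 and 0.166 CPM, where a count of 0 allows up to 0.141 CPM (3 counts, counting error only). Control colon lay below control ileum without overlap, and the share of all genes that did so was not counted. In KO mice the lowest ileal library lay within the range of colon. The log2 fold change was -1.85 (SE 0.82, adjusted p = 0.12) in control mice, which did not pass, and -2.19 (SE 0.87, adjusted p = 0.083) in KO mice, which did. The difference between these estimates was not called (-0.34, SE 1.17, adjusted p = 1 by edgeR). The KO call was lost under 14 of 22 alternatives, among them limma-voom, an adjusted p under 0.05 and leaving out any colonic library, ileum KO replicate 1 or ileum KO replicate 3, with adjusted p from 0.053 to 0.33 over the alternatives. With both muscle-poor ileal libraries left out Tlr9 failed the filter on low counts, and no value could be had. In control mice it was called in 3 of 22 alternatives.

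The remaining 3 receptors were not called between the tissues. Tlr3, the receptor for double-stranded RNA, ranged from 38.1 to 49.9 CPM in ileum and from 43.7 to 55.9 CPM in colon, with log2 fold changes of 0.24 (SE 0.13, adjusted p = 0.18) and 0.23 (SE 0.13, adjusted p = 0.21), and was called under 4 of 25 alternatives in control and 2 in KO mice. Its KO libraries did not overlap, at 43.3, 41.9 and 38.1 CPM in ileum and 47.6, 48.7 and 48.4 CPM in colon. Nlrp6 had log2 fold changes of 0.38 (SE 0.16, adjusted p = 0.11) in control and 0.18 (SE 0.16, adjusted p = 0.42) in KO mice, and was called in control mice under 7 of 25 alternatives. Naip1 held 361.8, 235 and 131 CPM in control ileum and 357, 264 and 412 CPM in control colon, and 134, 394 and 290 CPM in KO ileum and 252, 343 and 291 CPM in KO colon. The ileal libraries of Naip1 thus spread over a wider range than its colonic ones, and the estimates of 0.51 (SE 0.40, adjusted p = 0.37) and 0.12 (SE 0.40, adjusted p = 0.85) did not pass the test. Of the 10 receptors, 6 in control and 6 in KO mice had every colonic library above every ileal library, against 20.3% and 25.5% of all genes.

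Of the paralogs of Naip1, Naip5 and Naip6 were lower in colon and Naip2 was not called. Whether they differed from Naip1 itself was not tested. Naip5, whose product recognises flagellin, held 313, 302 and 214 CPM in control ileum and 83.4, 68.5 and 81.3 CPM in control colon. Naip6, its close copy, held 596, 485 and 350 CPM in control ileum and 153, 145 and 164 CPM in control colon. Both were lower in colon, with log2 fold changes of -1.83 (SE 0.16, adjusted p = 8.2e-06) and -1.63 (SE 0.21, adjusted p = 0.00018) in control mice. In KO mice they were -1.99 (SE 0.16, adjusted p = 4.7e-06) and -1.74 (SE 0.21, adjusted p = 0.00012). Of all genes, 19.6% in control and 20.0% in KO mice were called lower in colon. Naip2, which recognises a rod protein of bacterial secretion systems, was at 103 to 138 CPM in all 12 libraries and was not called, with log2 fold changes of -0.05 (SE 0.14) and -0.14 (SE 0.14). Nlrc4, the inflammasome partner of the NAIP proteins, was also lower in colon, at a mean of 90.1 CPM in ileum and 41.1 CPM in colon of control mice (log2 fold change -1.13, SE 0.12, adjusted p = 4.8e-05). With the counts of Naip1, Naip2, Naip5 and Naip6 added together the sum was lower in colon, by a log2 fold change of -0.69 (SE 0.23, adjusted p = 0.041) in control and -0.92 (SE 0.23, adjusted p = 0.011) in KO mice. The Reporting Summary of the study states that uniquely mapped reads were used, but the deposited expected counts are not all whole, and how reads shared between Naip copies entered them could not be settled. The cytosolic flagellin receptor Naip5 and the surface flagellin receptor Tlr5 therefore stood on opposite sides of the colon to ileum ratio in these libraries, with 5 to 319 counts per library behind Tlr5 and 1427 to 7986 behind Naip5.

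**Figure D3:**
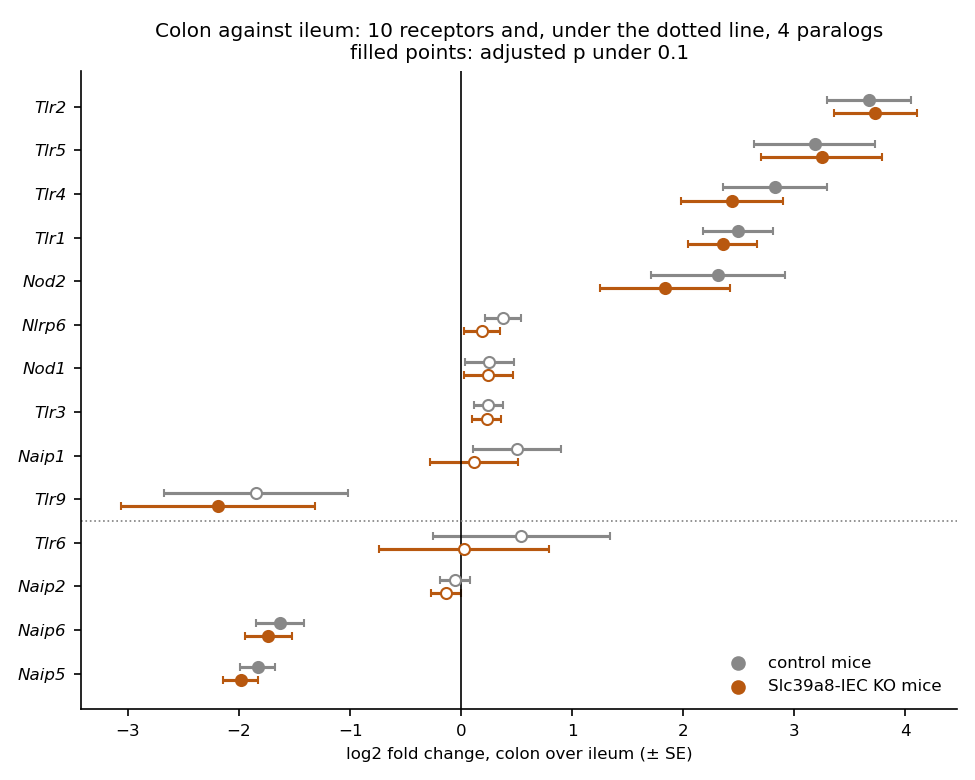
Log2 fold change of colon over ileum (± SE) for the 10 receptors and, below the dotted line, 4 paralogs, in control (grey) and Slc39a8-IEC KO mice (orange); filled points passed an adjusted p under 0.1. Tlr1, Tlr2, Tlr4, Tlr5 and Nod2 lie between 1.83 and 3.73, and Naip5 and Naip6 between -1.99 and -1.63.

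Markers of T cells and epithelium and some of those of macrophages and dendritic cells were lower in colon, and some endothelial markers were higher. The largest shifts were in region-specific epithelial cells. All 5 Paneth cell markers were lower in colon (median log2 fold change -9.26 in control and -8.68 in KO mice). So were all 3 ileal enterocyte markers tested (-9.46 and -8.85). Of 3 colonocyte markers, 3 were higher in control and 1 in KO mice. The 5 macrophage and dendritic cell markers summed to 31.6 to 58.7 CPM in ileum and 15.4 to 27.9 CPM in colon, and none of the 5 was at 0 throughout. Csf1r, Itgam and Itgax were called lower in colon in each genotype, while the macrophage markers Adgre1 (log2 fold change -0.01 in control and 0.09 in KO mice) and Cd68 (-0.06 and 0.20) were not called. The 5 T-cell markers summed to 18.1 to 55.6 CPM in ileum and 7.004 to 17.3 CPM in colon, and all 5 were lower in colon. The 5 epithelial markers, among them Epcam and Vil1, summed to 14490 to 18010 CPM in ileum and 7578 to 8541 CPM in colon, and all 5 were lower. Of 4 endothelial markers, which summed to 4.46 to 13.3 CPM in ileum and 7.94 to 19.4 CPM in colon, Tek was higher in colon in control mice (1.33, SE 0.42, adjusted p = 0.035), and Tek (1.10) and Pecam1 (1.02) were higher in KO mice. The 5 smooth muscle and 4 fibroblast markers were not called between the tissues, nor were the 5 B-cell markers in control mice, of which 1 was lower in KO mice. Of 3 plasmacytoid dendritic cell markers tested, 1 was lower in control mice, and 1 was lower and 1 higher in KO mice. Neutrophil markers summed to at most 2.11 CPM in any library, and S100a8 and S100a9 were at or under 0.444 CPM throughout. The part of these shifts in the receptor differences was not tested.

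Within ileum, the receptors were also set side by side between the muscle-poor libraries and the rest, a split read from the data and not a group of the study. In ileum control replicate 3 and ileum KO replicate 1, Tlr1, Tlr2, Tlr4, Nod1, Nod2 and Naip1 were below all other 4 ileal libraries, Tlr5 was above them, and Tlr3, Tlr9 and Nlrp6 overlapped. Of all genes kept, 27.2% lay below and 23.2% above in this split, against 6 and 1 of the 10 receptors. The mean of these libraries was 0.429 of that of the other 4 for Tlr2, 0.377 for Tlr4, 0.415 for Naip1 and 0.223 for Nod2, whereas it was 2.58 for Tlr5. The same libraries had lower summed markers of fibroblasts (15.6 to 16.3 against 156 to 361 CPM) and T cells (18.1 to 20.9 against 43.4 to 55.6 CPM). They had higher summed markers of B cells (39.5 to 50.1 against 1.93 to 5.07 CPM) and Paneth cells (7360 to 9608 against 2870 to 4219 CPM). The macrophage and dendritic cell sum was 31.6 to 36.8 against 41.6 to 58.7 CPM. The endothelial sum was 11.03 to 13.3 against 4.46 to 10.1 CPM, the sum of 4 plasmacytoid dendritic cell markers was 37.9 to 43.5 against 35.8 to 52.1 CPM, and the epithelial sum was 14910 to 15590 against 14490 to 18010 CPM. The part of any of these cell types in the receptor levels was not tested.

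**Figure D4:**
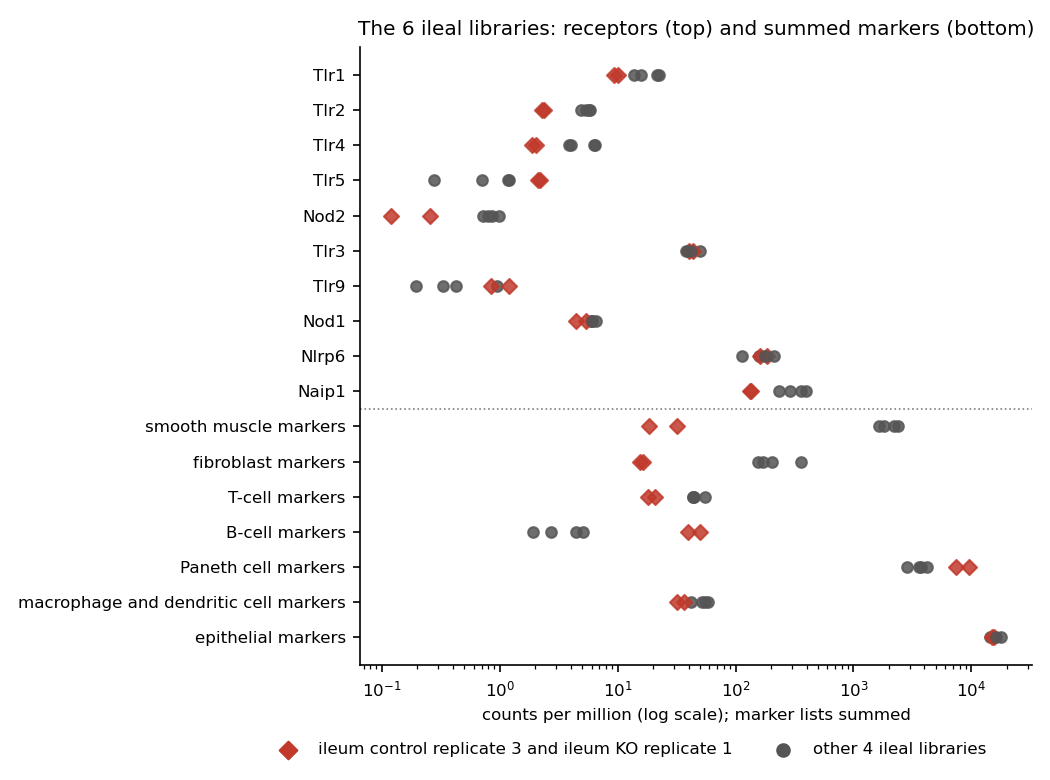
CPM (log scale) in the 6 ileal libraries for the receptors (top) and for summed marker lists (bottom); red diamonds are ileum control replicate 3 and ileum KO replicate 1, grey circles the other 4. The diamonds lie below the circles for Tlr1, Tlr2, Tlr4, Nod1, Nod2, Naip1 and the muscle, fibroblast, T-cell and macrophage markers, and above them for Tlr5 and the B-cell and Paneth cell markers.

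The tissue differences stood without these libraries. With both left out, the log2 fold change in control mice was 3.32 for Tlr2, 2.24 for Tlr1, 2.45 for Tlr4, 3.94 for Tlr5 and 1.91 for Nod2, and in KO mice 3.46, 2.11, 2.13, 3.75 and 1.38, with every adjusted p at most 0.01. Nlrp6 was then also called in control mice (0.44, SE 0.18, adjusted p = 0.076). Naip1 turned to -0.20 (SE 0.24, adjusted p = 0.54) in KO mice. Without ileum KO replicate 2, which held colonic transcripts, the same 5 and Tlr9 were called in KO mice, with log2 fold changes of 3.98 for Tlr2, 2.68 for Tlr1, 2.93 for Tlr4, 3.15 for Tlr5 and 2.24 for Nod2.

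The comparison of Slc39a8-IEC KO with control mice asks whether loss of the transporter in the epithelium changed the receptors. By edgeR none of the 10 passed an adjusted p of 0.1, over both tissues, in ileum, in colon, or for the difference of the effect between the tissues. The share of all genes called was 0% in each, and DESeq2 and limma-voom called none of the 10 either. At an unadjusted p under 0.05 there was 1 receptor over both tissues, against 3.87% of all genes, and 1 in ileum, against 1.52%. There was none in colon, against 2.33%, and none for the difference, against 1.02%. The receptor was Nlrp6 in both cases. The log2 estimates over both tissues ranged from -0.42 to 0.31 with a median of -0.03, beside a median of 0.00 (0.002) over all genes. Slc39a8, the targeted gene, was itself not called at this threshold, with a log2 fold change of -1.13 (SE 0.17, adjusted p = 0.38 by edgeR), although its groups did not overlap in either tissue. It was called with DESeq2 (-1.13, adjusted p = 1.2e-05), with limma-voom (-1.18, adjusted p = 0.073), without both muscle-poor libraries (-1.24, adjusted p = 0.019) and without ileum KO replicate 1 (-1.25, adjusted p = 0.09), and under none of the other 19 alternatives, which for this gene were added after the data were seen.

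The intervals give the range of change that each receptor's own values allow, without adjustment for the number of genes tested. A change outside them could still miss the adjusted threshold. Slc39a8, for example, was not called over both tissues with an interval of -1.50 to -0.75. Over both tissues the 95% interval of the log2 change, KO over control, was -0.27 to 0.11 for Tlr3 and -0.34 to 0.30 for Nod1, the tightest of those that span 0. It was -0.48 to 0.40 for Tlr1, -0.50 to 0.51 for Tlr2 and -0.82 to 0.49 for Tlr4. For the genes with few counts it was wider, at -0.57 to 0.92 for Tlr5, -0.93 to 0.80 for Nod2 and -1.63 to 0.80 for Tlr9. For Naip1 it was -0.62 to 0.56. By an exact two-sided permutation test of log2(CPM + 0.5), with the genotypes exchanged within each tissue, p over both tissues lay between 0.37 (Tlr3) and 0.935 (Tlr2) for these 9 receptors. The exchange in ileum was independent of that in colon, as if no mouse gave both libraries.

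Nlrp6, which is linked to mucus secretion and inflammasome signalling in the gut epithelium, had the largest positive estimate over both tissues. It held 113, 158 and 160.5 CPM in control ileum and 184, 177 and 211 CPM in KO ileum. In control colon it held 198, 207 and 155 CPM and in KO colon 224, 201 and 224 CPM. The ileal groups did not overlap, which held for 1 of the 10 receptors and for 3.70% of all genes, and the colonic groups overlapped, as for all 10 receptors, while 12.8% of all genes did not overlap in colon. The log2 change was 0.31 (SE 0.11, unadjusted p = 0.016, adjusted p = 0.998 by edgeR) over both tissues, 0.41 (SE 0.16) in ileum and 0.21 (SE 0.16) in colon, and the difference between the tissues was -0.19 (SE 0.23, adjusted p = 1). The exact permutation p was 0.01 over both tissues, where the 400 arrangements allow none below 0.005, and 0.1 in ileum and 0.2 in colon, where the 20 arrangements allow none below 0.1. It was the smallest of 10 such tests, and under the alternatives its adjusted p over all genes ranged from 0.41 to 1. The 400 arrangements exchange genotypes in ileum independently of colon, as if no mouse gave both libraries. If the tissues came from the same mice, only 20 arrangements would hold, which allow no p below 0.1. The edgeR fit over both tissues also took all libraries as independent, so both p-values would then be too small. The estimate over both tissues stayed between 0.24 and 0.38.

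**Figure D5:**
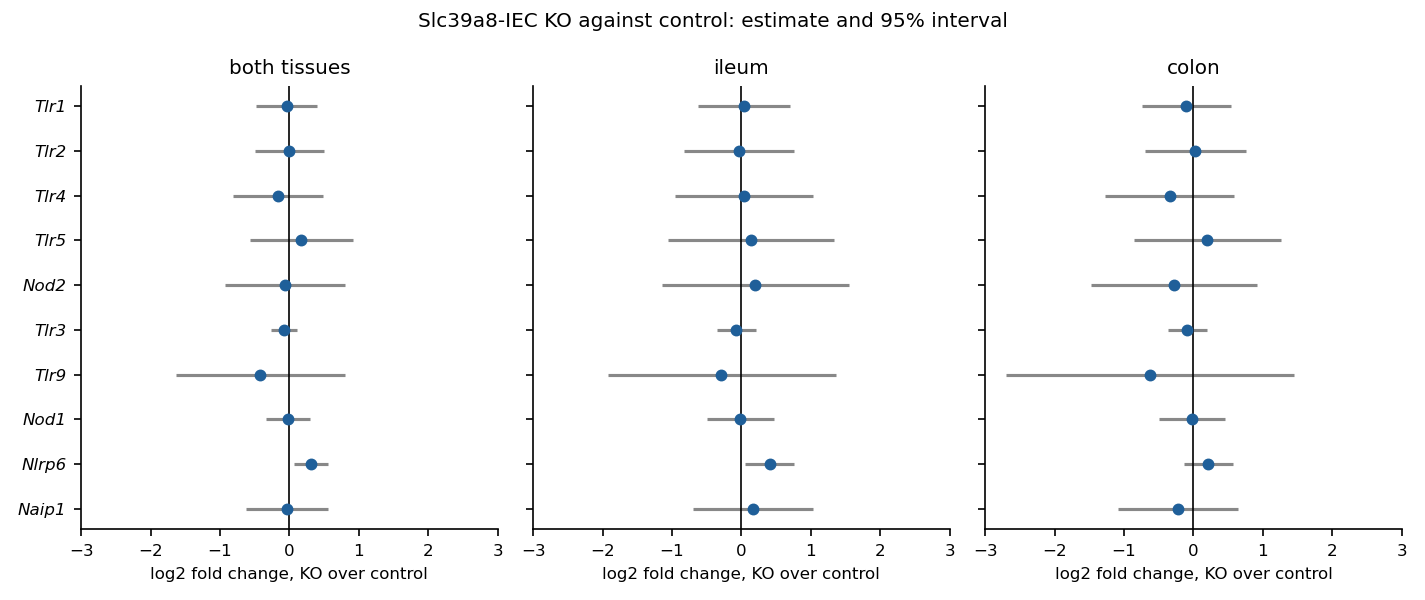
Log2 fold change of Slc39a8-IEC KO over control for each receptor (points) with its 95% interval (lines), over both tissues, in ileum and in colon. Apart from Nlrp6 over both tissues and in ileum, every interval includes 0, and none passed the adjusted threshold.

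Beyond the 10 receptors, 111 further genes of 7 lists were examined, some of them receptors or accessory proteins and others signalling genes, of which 100 passed the filter. None was called between the genotypes over both tissues, and 3 had an unadjusted p under 0.05, namely Tlr11, Il1rl1 and Pglyrp2, against 3.87% of all genes. Between the tissues 7 were higher and 41 lower in colon in control mice, and 4 were higher and 37 lower in KO mice. Most of the called genes thus stood on the opposite side from the 5 receptors that were higher in colon. The share of all genes called lower was 19.6% in control and 20.0% in KO mice, and that called higher 16.2% and 17.1%. The medians of the 7 lists lay between -1.21 and -0.27 (log2) in control and between -0.93 and -0.18 in KO mice. These counts and medians were taken with TMM factors only, and the scaling shifts all tissue estimates. With library size alone the median over all genes was 0.24 in control and 0.29 in KO mice, against 0.02 and 0.01 with TMM.

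Among 15 other Toll-like receptors and accessory proteins tested, 3 were lower and none higher in colon in control mice. Of all genes, 19.6% were called lower and 16.2% higher there, so 3 of 15 lay near the share of all genes. The median log2 fold change was -0.75 over the list and 0.02 over all genes. Counts of the lists that follow stand beside the same shares in control mice, and beside 20.0% lower and 17.1% higher in KO mice. The largest change among the 3 was in Tlr12, a mouse receptor for profilin of protozoa (log2 fold change -2.63, SE 0.62, adjusted p = 0.0083). Its mean was 2.75 CPM in ileum and 0.438 CPM in colon. Hsp90b1, the chaperone that folds Toll-like receptors, was at 945 and 361 CPM (-1.39, SE 0.16, adjusted p = 7.2e-05), and Lbp, the lipopolysaccharide-binding protein, at 4.84 and 2.19 CPM (-1.14, SE 0.45, adjusted p = 0.079). The call of Lbp was lost under 11 of 25 alternatives, among them limma-voom and leaving out ileum control replicate 1 or 2 or any control library of colon. In KO mice Tlr12 (-2.50) and Hsp90b1 (-1.23) were lower again, and Lbp (-0.57, adjusted p = 0.37) was not called.

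Of 17 adaptors and kinases tested, 2 were higher and 7 lower in colon in control mice and none higher and 6 lower in KO mice. Ticam1 (TRIF), the adaptor of TLR3 and TLR4, fell from a mean of 57.8 to 33.9 CPM (log2 fold change -0.77, SE 0.18, adjusted p = 0.0074). The kinases Tbk1 (-0.55), Ikbke (-0.65) and Irak2 (-0.67) fell as well in control mice. Irak1, a kinase downstream of MyD88, rose by 0.35 (SE 0.12, adjusted p = 0.041), and Tab2 fell by 0.31 (SE 0.12, adjusted p = 0.068). The call of Irak1 was lost under 3 of 25 alternatives, one of them leaving out colon control replicate 2, and that of Tab2 under 10, among them leaving out ileum control replicate 2 or colon control replicate 1 or 2. Myd88, the adaptor that most of the Toll-like receptors share, was not called. Its mean was 30.6 ± 9.4 CPM in control ileum and 23.4 ± 1.3 CPM in control colon (SD, n = 3). This gene was named after its values were seen.

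Of 12 genes of NOD signalling tested, 1 was higher and 6 lower in control mice and 1 higher and 7 lower in KO mice. Card9, the adaptor that links NOD2 and C-type lectins to MAP kinases and NF-kB, had a mean of 35.4 CPM in control ileum and 0.209 CPM in control colon (log2 fold change -7.35, SE 0.62, adjusted p = 7.1e-06). Slc15a1 (PepT1), which carries di- and tripeptides including bacterial muramyl peptides into the enterocyte, was at 578 and 13.4 CPM (-5.42, SE 0.45, adjusted p = 5.7e-06). The lysosomal carrier Slc46a3, reported to move muramyl peptides, was at 134 and 23.1 CPM (-2.53, SE 0.21), whereas Slc15a4, the endolysosomal carrier, was higher in colon at 7.89 and 16.0 CPM (1.02, SE 0.23, adjusted p = 0.0071). The ubiquitin ligases Birc3 (-1.37, SE 0.21) and Birc2 (-0.54, SE 0.13) were lower in colon. Ripk2, the kinase that both NOD receptors need, was at 4.77 ± 2.11 and 6.41 ± 1.64 CPM (SD, n = 3) in control ileum and colon, was not called, and was named after its values were seen.

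Of 20 genes of NF-kB and its inhibitors tested, 2 were higher and 9 lower in control mice and 2 higher and 10 lower in KO mice. Pparg, a nuclear receptor that dampens NF-kB targets in colonic epithelium, rose from a mean of 13.1 to 173 CPM (log2 fold change 3.73, SE 0.42, adjusted p = 6e-05). Ikbkg (NEMO), the scaffold of the IkB kinase, rose by 0.50 (SE 0.11). Relb fell from 114 to 44.8 CPM (-1.35, SE 0.14), Tollip, an inhibitor of TLR signalling, from 130.2 to 72.0 CPM (-0.85, SE 0.12), Il1rl1 (ST2) from 5.05 to 0.949 CPM (-2.40, SE 0.51) and Tnip1 by 0.71 on the log2 scale.

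Of 17 inflammasome partners and effectors tested, 1 was higher and 9 lower in control mice and 1 higher and 7 lower in KO mice. Aim2, the receptor for cytosolic DNA, was the one that rose, from a mean of 13.9 to 55.0 CPM (log2 fold change 1.99, SE 0.30, adjusted p = 0.00048). Casp8 fell from 219 to 92.2 CPM (-1.25, SE 0.22), and Gsdmd, the pore-forming effector of pyroptosis, from 320.1 to 138 CPM (-1.21, SE 0.33, adjusted p = 0.019). Of 12 cytosolic nucleic acid sensors, 1 was higher and 4 lower in control mice. In KO mice 2 were lower, against 20.0% of all genes. Tmem173 (STING) fell from 4.85 to 1.45 CPM (-1.73, SE 0.42), in control mice, a call that held under all 25 alternatives. The other 4 calls in control mice were less stable. Mavs (-0.44, SE 0.15, adjusted p = 0.044) lost its call under 6 of 25 alternatives, Ddx58 (RIG-I; -0.55, SE 0.22, adjusted p = 0.089) under 12, Dhx58 (0.89, SE 0.37, adjusted p = 0.092) under 12 and Nlrx1 (-0.92, SE 0.36, adjusted p = 0.084) under 13. All 4 calls were lost without ileum control replicate 2 and without colon control replicate 1, and Nlrx1 ranged from -1.32 to -0.46 with 1 library left out. In KO mice Tmem173 and Ddx58 were called again, and lost that call under 4 and 7 of 25 alternatives. Of 7 C-type lectin and peptidoglycan recognition receptors tested out of 12, 3 were lower in control and 2, Pglyrp1 and Pglyrp2, in KO mice. The 3 were Pglyrp1, which fell from a mean of 149.5 to 59.8 CPM (-1.32, SE 0.20), Clec7a (Dectin-1; -1.67, SE 0.64, adjusted p = 0.072) and Pglyrp2 (-1.63, SE 0.63, adjusted p = 0.074). Pglyrp1 was called under all 25 alternatives in both genotypes. Clec7a lost its call in control mice under 8 of 25 alternatives, and Pglyrp2 under 10 of 23 in control and 14 of 24 in KO mice, DESeq2 among the latter.

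The genes whose profiles were most like those of the receptors were found as those with the smallest root mean square difference of log2 CPM over the 12 libraries, after each profile was centred on its mean. For Tlr1 they were Cela1 (0.185) and Ndrg1 (0.227), for Tlr2 Itga7 (0.279) and Zbtb10 (0.298), and for Tlr4 Gm17167 (0.230) and Dhrs9 (0.30). For Tlr5 they were Hsd3b2 (0.268) and Hsd3b3 (0.386), steroid dehydrogenase genes, and for Nod2 Acyp2 (0.294) and Plcd3 (0.316). Of these, Gm17167 was near the floor in ileum, at a mean of 0.063 CPM in control and 0.055 CPM in KO mice. The receptors that were not called had closer nearest genes, apart from Tlr9. The measure grows with the spread of a profile, so a gene that varies little has close neighbours by construction. For Tlr3 the nearest genes were Map4k3 (0.077) and Mzt1 (0.088), and for Nod1 Card19 (0.095) and Ocel1 (0.116). For Nlrp6 they were Pick1 (0.116) and Mrps23 (0.133), and for Naip1 Arrdc4 (0.131) and Lurap1l (0.202). Tlr9, with the fewest counts, had the most distant ones, Dyrk3 (0.431) and Rn7s1 (0.484). None of the 10 receptors was among the 2 nearest genes of another.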

How the data were processed

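Per the labels, oligo-dT primed RNA-seq of mouse ileal and colonic mucosa was aligned with STAR to mm10, and the authors deposited 1 table of expected counts per gene. The Reporting Summary names uniquely mapped reads, UMI-tools for duplicates and FeatureCounts for counting. Which tool gave the expected counts, not all of which are whole, and how it treated strand were not settled. Rows of spike-ins, 92 in all, held no counts and were left out. The expected counts (93.7% of values were within 0.005 of a whole number) were rounded, gene IDs were matched to GENCODE M21 (53620 of 53715 IDs gave a symbol), and genes were filtered with filterByExpr. All 12 libraries were fitted as 4 groups with TMM factors in edgeR 4.0.16 (R 4.3.3, quasi-likelihood test, Benjamini-Hochberg adjustment over 16558 genes, threshold 0.1). The genotype comparison over both tissues used a separate fit of the same libraries, with tissue and genotype as additive terms. CPM are scaled by TMM factors. DESeq2 1.42.0 and limma 3.58.1 were alternatives. The scripts were tested on simulated data. Interval bounds use the moderated degrees of freedom. Replicates differed by more than sampling noise.

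Named genes were the 10 receptors, their paralogs Tlr6, Naip2, Naip5 and Naip6, Slc39a8, of each pathway list up to 6 genes with the smallest p among those called for colon against ileum in control mice, the cell type markers and the 2 nearest profiles of each receptor. Members, lists and tests were chosen with earlier results of these data known.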

Additional observations from a re-analysis of the deposited data

How the results depend on the processing

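No receptor was called between the genotypes under any of 23 or 24 alternatives per comparison. Between the tissues 5 to 7 of 10 were called in each genotype under 25 alternatives. Where paralogs were added together, the called sums of the Naip genes and of Tlr1 with Tlr6 were counted as Naip1 and Tlr1. Tlr1, Tlr2, Tlr4, Tlr5 and Nod2 were called under all 25 in both genotypes, with the largest adjusted p for Nod2, 0.053 in control and 0.095 in KO mice. Against 0 genes called in all by edgeR, the genotype comparison over both tissues gave 4 genes with DESeq2, 1 with limma-voom, 5 without both muscle-poor ileal libraries and 1 without either of them. In ileum DESeq2 called 2, limma-voom 1, the fit without both libraries 3 and that without ileum KO replicate 1 alone 1, in colon the fit of the colonic libraries alone called 1, and for the difference between tissues DESeq2 called 1. Scaling moved the tissue comparison as a whole: 45.3% of called genes were higher in colon in control and 46.1% in KO mice with TMM, 55.2% and 58.3% with upper-quartile factors (median shift 0.12 and 0.14, log2) and 66.4% and 70.8% with library size alone (0.24 and 0.29). Uncalled genotype estimates changed sign over both tissues with library size alone for Tlr1 (0.053), Tlr3 (0.0063), Nod1 (0.056), Nod2 (0.025) and Naip1 (0.065). That of Tlr2 turned to -0.00095 with DESeq2, -0.012 with upper-quartile factors, -0.00012 with at least 10 counts in 6 libraries and -0.00079 without both muscle-poor libraries, where Nod1 was at 0.02. With 1 library left out at a time these estimates ranged from -0.181 to 0.107 for Tlr1, from -0.113 to 0.119 for Tlr2, from -0.0041 to 0.424 for Tlr5, from -0.075 to 0.052 for Nod1, from -0.25 to 0.096 for Nod2 and from -0.21 to 0.125 for Naip1. Between the tissues, the sum of Naip1 and its paralogs, taken in place of Naip1, was at -0.69 in control and -0.921 in KO mice. Naip1 itself turned in KO mice to -0.204 without both muscle-poor libraries and ranged from -0.203 to 0.476 with 1 library left out. Naip2 in control mice was at 0.048 with upper-quartile factors and 0.186 with library size, and from -0.185 to 0.065 with 1 left out. In KO mice library size alone gave 0.135 for Naip2, 0.097 for Tab2 and 0.111 for Mavs, and Tlr6 was at -0.127 without both muscle-poor libraries and from -0.149 to 0.435 with 1 left out. The causes were not tested. Of 76 tissue results for other named genes, 52 kept direction and side of the threshold throughout.

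Whether same-numbered libraries of ileum and colon share a mouse is not known, and they did not all deviate together: their deviations correlated at -0.08 to 0.251 between ileum and colon and at -0.694 to 0.403 between genotypes. With the replicate number as a block, 0 receptors were called between the genotypes and 5 between the tissues in each genotype, the KO call of Tlr9 being lost (adjusted p = 0.14 by edgeR), and Tlr6 in KO mice turned to -0.066. The numbers of genes called between the tissues were then 5333 in control and 5558 in KO mice. The depth limits Tlr9 and Nod2 most, with at most 20 counts for Tlr9 in any library and 2 to 25 for Nod2 in ileum.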
